A study of Mus musculus with 17 samples.

Results

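The Ikaros family of zinc finger transcription factors was followed through 6 populations of mouse hematopoietic stem and progenitor cells (HSPCs). Its members are Ikzf1 (Ikaros), Ikzf2 (Helios), Ikzf3 (Aiolos), Ikzf4 (Eos) and Ikzf5 (Pegasus). They were chosen by name: every array probe whose gene name is a member was read, which gave 14 probes of 5 genes among 41174 probes of 28090 gene names. Ikzf1 and Ikzf5 had 1 probe each, Ikzf2 had 5, Ikzf3 had 4 and Ikzf4 had 3.

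Ikaros family proteins bind DNA through a cluster of zinc fingers near the amino end and pair with one another through a further set at the carboxyl end. They recruit chromatin complexes, above all the nucleosome remodelling and deacetylase complex (NuRD), and can hold genes silent or open them. Ikaros is needed for lymphoid development and primes lymphoid genes in early progenitors, Helios and Eos are best known from T cells, and Aiolos from B cell maturation.

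Single-color Agilent arrays, 17 in all, held the mRNA of long-term HSCs (LT-HSC, 2 arrays), short-term HSCs (ST-HSC), multipotent progenitors (MPP), common myeloid progenitors (CMP), granulocyte-monocyte progenitors (GMP) and megakaryocyte-erythroid progenitors (MEP), with 3 arrays for every population but the first. All cells came from the bone marrow of untreated female C57Bl/6 mice aged 6 to 8 weeks, and 10 to 20 mice were pooled for a replicate sample. By its title, the LT-HSC array called the LT-HSC pool below combines replicates 2 and 3, and the other is unnumbered. Cells carrying B220, CD3, GR-1 or Ter119 were depleted, c-kit+ cells were enriched, and the populations were sorted on c-kit, Sca-1, CD34, FLT3 and FcRγ, so each population is as pure as its surface gate. The first 3 populations, isolated in a single sort, are called HSC subsets, and the last 3, isolated in a separate sort, are called myeloid populations. Sort and this division therefore cannot be told apart. The p-values given below measure the spread between these pooled samples.

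All levels are normalized log2 intensities, and a probe is called where its adjusted p in limma is under 0.05. A level compares arrays for 1 probe and not 2 probes with each other, since probes differ in brightness. Scanning took place in 3 runs, here the calendar months of the scan dates. Run 1 held CMP, GMP and MEP replicates 1 and 2. Run 3 held both LT-HSC arrays and replicates 2 and 3 of ST-HSC and MPP. Run 2 held 1 unnumbered array of each population except LT-HSC. Its CMP, GMP and MPP arrays shared a slide, and its MEP and ST-HSC arrays lay on another slide scanned on another day. Gaps within run 2 from MEP or ST-HSC to CMP, GMP or MPP therefore also cross slide and day. No run held LT-HSC with a myeloid population, so with run as a block those comparisons are linked through ST-HSC and MPP. The share of spots well above background ran from 41.4% to 70.1% over the arrays, and was lowest on the unnumbered LT-HSC array, the dimmest one (75th percentile of intensity 53.1, elsewhere 243.3 or more). The labels were checked against markers for the wider divisions: all 7 markers of HSC subsets were higher in HSC subsets than in myeloid populations, all 6 GMP markers were higher in GMP than in MEP, and 4 of 5 MEP markers were lower in GMP than in MEP, the other, Itga2b, being higher in GMP. Among the gating genes, Flt3 averaged 8.24 ± 0.93 (SD) in LT-HSC, 6.86 ± 0.12 in ST-HSC and 9.93 ± 0.18 in MPP, and Ly6a, which encodes Sca-1, averaged 8.88 ± 0.79 in ST-HSC but 9.71 ± 0.67 in GMP. Cd34 averaged 14.96 ± 0.20 in LT-HSC, 15.88 ± 0.09 in ST-HSC and 14.29 ± 0.23 in GMP, and LT-HSC was not called against ST-HSC (-0.92 ± 0.50, limma, adjusted p = 0.388). In bulk samples such as these, fewer cells of a type and less RNA per cell cannot be told apart.

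A coding-sequence probe of each of 4 members is shown, since it fixes which piece of the transcript was read. The 60 bases of each are given 5′ to 3′ on the strand of the transcript, except that 10 bases after the stop codon of Ikzf2 are left out. Capitals mark a pair of histidine codons in the last zinc finger of Ikzf2 and a pair of cysteine codons in a zinc finger of Ikzf3. The Ikzf1 probe (chr11:11658319-11661278, mm9, plus strand) spans 2960 bases of genome and the Ikzf4 probe (chr10:128071818-128072855, minus strand) spans 1038, so both cross an intron and read spliced mRNA. The Ikzf2 probe lies at chr1:69585332-69585391 and the Ikzf3 probe at chr11:98328428-98328487, both on the minus strand.
Ikzf1 A_52_P618569: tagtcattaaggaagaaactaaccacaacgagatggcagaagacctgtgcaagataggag
Ikzf2 A_51_P413398: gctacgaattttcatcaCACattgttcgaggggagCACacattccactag
Ikzf3 A_51_P222261: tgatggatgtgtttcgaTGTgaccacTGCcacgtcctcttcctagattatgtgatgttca
Ikzf4 A_52_P291857: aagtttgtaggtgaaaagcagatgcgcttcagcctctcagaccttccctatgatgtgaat

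Differences between the 6 populations were called for 9 of the 14 probes (F-test of limma), where 40.6% of all probes were called. Between HSC subsets and myeloid populations 7 probes were called, all higher in HSC subsets, where 41.3% of all probes were called in either direction. This division moved with scanning run, and with run as a block 1 of the 14 probes was called, and 0 of the brightest probes of the 5 genes (limma, 1 at an unadjusted p under 0.05). No family probe kept the 2 sides apart on every array, and 8.05% of all probes did. By the brightest probe of each gene, 3 of the 5 members were called in the F-test (40.0% of gene names) and the same number was higher in HSC subsets (21.7% of gene names, with a further 19.0% lower). Between neighbouring populations few family probes were called: 2 probes were called between LT-HSC and ST-HSC (3.34% of all probes), 0 between ST-HSC and MPP (2.02%), 2 between MPP and CMP (12.1%, and 0 with run as a block) and 0 between CMP and GMP (4.77%). Against MEP, 3 probes were higher in CMP (16.7% of all probes called) and 4 were higher in GMP (17.4%), all of them of Ikzf2. At an unadjusted p under 0.05 in limma, 2 family probes passed between ST-HSC and MPP and 3 between CMP and GMP. The shares above are for adjusted p, and no share of all probes is given for this threshold.

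**Figure D1:**
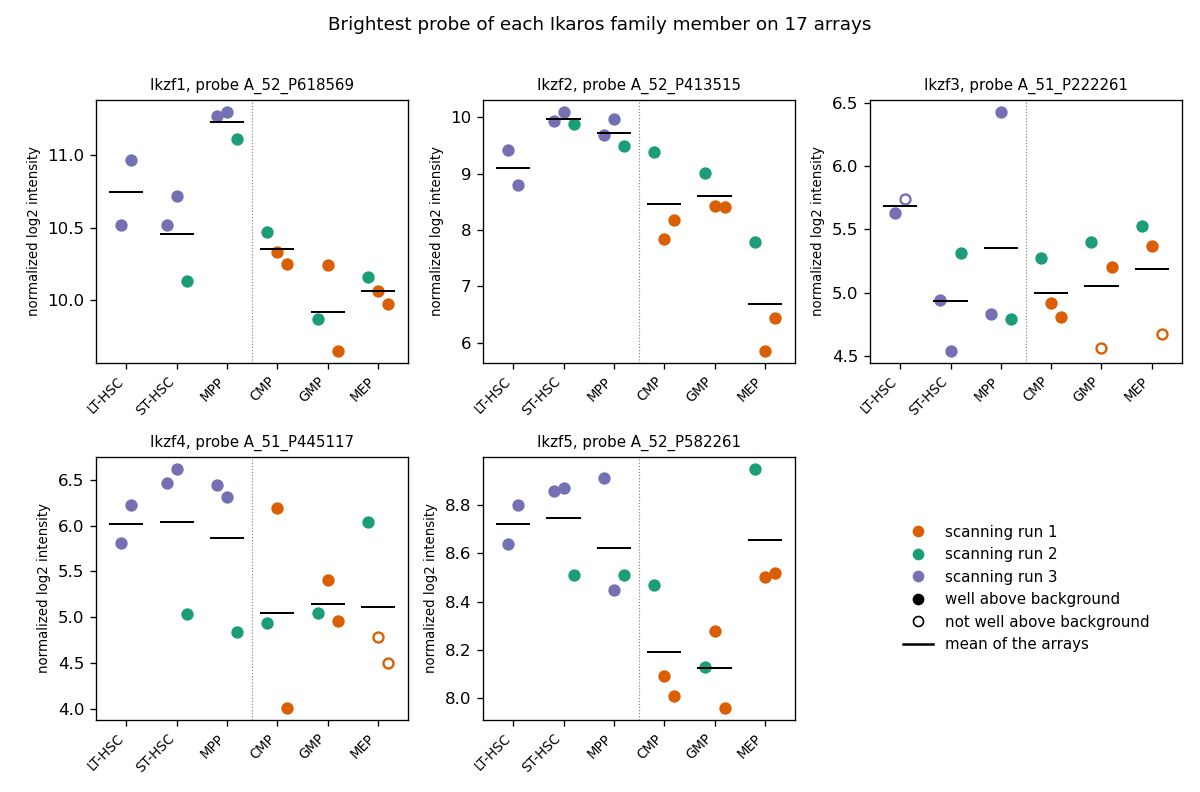
Normalized log2 intensity of the brightest probe of each member on the 17 arrays, by population, coloured by scanning run, with open circles where the probe was not well above background and bars at the mean of each population. Ikzf1 is highest on the 3 MPP arrays (11.11 to 11.30), and Ikzf2 is lowest on the 3 MEP arrays (5.86 to 7.79).

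Ikaros mRNA itself was well above background on all 17 arrays and peaked in MPP. The MPP arrays stood at 11.27, 11.30 and 11.11. The LT-HSC arrays stood at 10.52 and 10.97, and the ST-HSC arrays at 10.52, 10.72 and 10.13. All 3 MPP arrays were thus above every array of the other populations. The CMP arrays stood at 10.47, 10.33 and 10.25, the GMP arrays at 9.87, 10.24 and 9.65, and the MEP arrays at 10.16, 10.06 and 9.97. ST-HSC overlapped CMP, GMP and MEP, and GMP overlapped MEP, while the CMP arrays lay just above those of GMP and MEP.

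The means of Ikzf1 fell in the order MPP (11.22 ± 0.10, SD, n = 3), LT-HSC (10.75 ± 0.32, n = 2), ST-HSC (10.46 ± 0.30, n = 3), CMP (10.35 ± 0.11, n = 3), MEP (10.06 ± 0.09, n = 3) and GMP (9.92 ± 0.30, n = 3). No neighbours in that order differed by the test, with adjusted p in limma of 0.215 for MPP over LT-HSC and 0.765 for MEP over GMP. MPP was above CMP by 0.87 ± 0.19 (SE) on the log2 scale (limma, adjusted p = 0.0118), above GMP by 1.30 (adjusted p = 0.000332) and above MEP by 1.16 (adjusted p = 0.000400). Within run 2 the gaps to GMP and MEP were 1.23 and 0.95, and both were called with scanning run as a block (1.03, adjusted p = 0.0115, and 0.88, adjusted p = 0.0137). The gap to CMP was not called without MPP replicate 2 (adjusted p = 0.0531) or CMP replicate 2 (adjusted p = 0.0600), or with run as a block (0.60, adjusted p = 0.211); within run 2 it was 0.64. ST-HSC was below MPP by 0.77 (adjusted p = 0.0666), and this difference was called with run as a block (adjusted p = 0.0312), with values of -0.98 within run 2 and -0.66 within run 3. LT-HSC was above GMP by 0.83 (adjusted p = 0.0116) and above MEP by 0.68 (adjusted p = 0.0274), but neither was called without the dim unnumbered LT-HSC array or with run as a block (adjusted p = 0.309 and 0.478), and the second was also lost without MEP replicate 1 or 2.

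Helios mRNA, read by its brightest probe A_52_P413515 (chr1:69577853-69577912), carried the largest difference between populations among the brightest probes of the 5 members. This probe was well above background on all 17 arrays. The ST-HSC arrays stood at 9.94, 10.10 and 9.89, the MPP arrays at 9.68, 9.97 and 9.50, and the LT-HSC arrays at 9.42 and 8.80. The CMP arrays stood at 9.38, 7.85 and 8.18 and the GMP arrays at 9.01, 8.42 and 8.41. The MEP arrays were the lowest of all, at 7.79, 5.86 and 6.44. MEP did not overlap any other population, whereas CMP and GMP overlapped each other and reached into the range of LT-HSC.

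ST-HSC exceeded MEP by 3.28 ± 0.45 (SE) on the log2 scale, which is 9.71-fold (limma, adjusted p = 0.000117). MPP exceeded MEP by 3.02 (adjusted p = 0.000183) and LT-HSC exceeded it by 2.42 (adjusted p = 0.00269). With run as a block these differences were 2.33, 2.07 and 1.39 (adjusted p = 0.000501, 0.000767 and 0.0294), and within run 2 the first and second were 2.10 and 1.71. No run held both LT-HSC and MEP, so the third rests on the other populations that link the runs. Among myeloid populations GMP was 3.77-fold above MEP (1.91 ± 0.45, adjusted p = 0.00863), and the difference was 2.26 within run 1 and 1.22 within run 2. It was called whichever array was left out, at 1.50 to 2.46. CMP was above MEP by 1.78 ± 0.45 (adjusted p = 0.0153), with 1.86 within run 1 and 1.60 within run 2, but was not called without CMP unnumbered, MEP replicate 1 or MEP replicate 2. The other neighbours in the order ST-HSC (9.98 ± 0.11, SD, n = 3), MPP (9.72 ± 0.24, n = 3), LT-HSC (9.11 ± 0.44, n = 2), GMP (8.61 ± 0.34, n = 3), CMP (8.47 ± 0.81, n = 3) and MEP (6.70 ± 0.99, n = 3) did not differ by the test. Markers of mature erythroid cells moved the opposite way: all 4 were lower in GMP than in MEP, with a mean level of 5.94 to 7.68 on the GMP arrays and 10.77 to 12.34 on the MEP arrays. Their part in the Ikzf2 result was not tested.

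**Figure D2:**
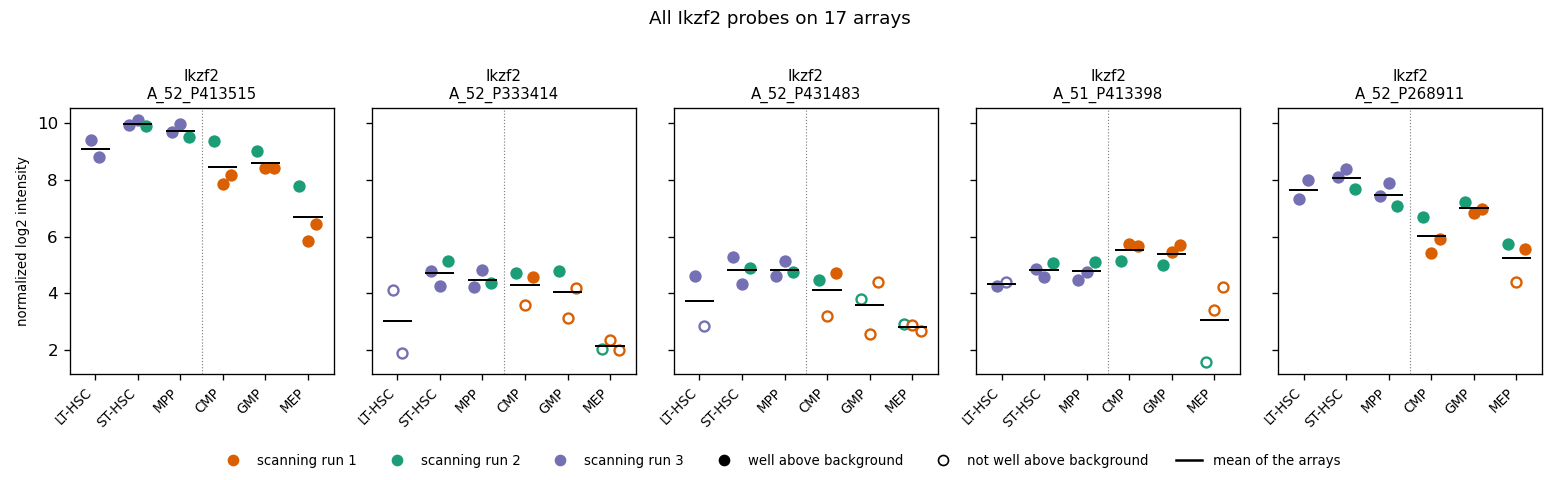
Normalized log2 intensity of the 5 Ikzf2 probes on the 17 arrays, on a common axis, with colours for scanning run, open circles where the probe was not well above background and bars at the mean. The MEP mean is the lowest of the 6 population means for each of the 5 probes, and for A_52_P333414, A_52_P431483 and A_51_P413398 no MEP array was well above background.

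The other Ikzf2 probes read other pieces of the gene, and all had their lowest mean in MEP, though not every difference from MEP was called. A_52_P268911 (chr1:69728793-69728852) was designed on another transcript, BC050049. It stood between 7.09 and 8.38 on the HSC subset arrays and between 4.42 and 7.21 on the myeloid arrays. GMP was above MEP by 1.76 ± 0.39 (limma, adjusted p = 0.00537), with 1.91 within run 1 and 1.46 within run 2, while CMP was not called against MEP (0.76 ± 0.39, adjusted p = 0.242). Over the 17 arrays, which share populations and runs, its Pearson correlation with A_52_P413515 was 0.90. This probe also separated CMP from MPP, by 1.47 ± 0.39 (adjusted p = 0.0279), but the difference was 0.40 within run 2, was not called with run as a block (0.62, adjusted p = 0.569), and was not called without MPP replicate 2 or 3 or CMP replicate 1 or 2.

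The coding probe A_51_P413398, printed above, was dimmer and ran differently among the other populations. Its MEP arrays, at 1.58, 3.42 and 4.23, were not well above background. Its CMP arrays stood at 5.15, 5.75 and 5.66 and its GMP arrays at 5.02, 5.47 and 5.71. CMP was at least 1.74-fold above MEP (limma, adjusted p = 0.00305) and GMP at least 1.60-fold (adjusted p = 0.00386), where a bound sets the brighter mean against the dimmest signal well above background. ST-HSC and MPP lay at least 1.08-fold and 1.04-fold above MEP (adjusted p = 0.0148 and 0.0164). Between HSC subsets and myeloid populations this probe differed by -0.02 ± 0.29 (adjusted p = 0.972), against 1.68 ± 0.27 for A_52_P413515 (3.19-fold, adjusted p = 0.000272). With run as a block the 2 probes gave 1.05 and 0.70 (adjusted p = 0.105 and 0.140), and within run 2, which held both sides, 1.17 and 0.97, with the 5 Ikzf2 probes between 0.83 and 1.17. Its correlation with A_52_P413515 over the 17 arrays was 0.32. The remaining pair, A_52_P333414 (chr1:69579632-69579691) and A_52_P431483 (chr1:69582501-69582560), were each well above background on 9 of 17 arrays and on no MEP array. For A_52_P333414 the adjusted p was 0.0119 in CMP against MEP and 0.0229 in GMP against MEP, with no fold given because the bound was under 1. The first call was lost without CMP replicate 2 (adjusted p = 0.0503) and the second without the unnumbered GMP or MEP array, GMP replicate 2 or MEP replicate 2 (highest adjusted p = 0.105). A_52_P431483 was called in neither CMP nor GMP against MEP (adjusted p = 0.127 and 0.434). It was higher in HSC subsets by 0.95 (adjusted p = 0.0292), a call lost without ST-HSC replicate 2, MPP replicate 3, the LT-HSC pool, GMP replicate 1, CMP replicate 1 or MEP replicate 2, and with run as a block (0.73, adjusted p = 0.551).

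Aiolos was the member whose probes parted most. The coding probe A_51_P222261 showed no called difference in any comparison (F-test of limma, adjusted p = 0.670). Its LT-HSC arrays stood at 5.63 and 5.74, its ST-HSC arrays at 4.94, 4.54 and 5.31, and its MPP arrays at 4.83, 6.43 and 4.79. The myeloid arrays ran from 4.56 to 5.53, and every population overlapped with at least 1 other. A_51_P222252 (chr11:98328719-98328778) ran from 3.48 to 5.80 and was well above background on 10 arrays. It was higher in LT-HSC than in CMP by 1.42 (adjusted p = 0.0380), a call lost without MPP replicate 3, the dim LT-HSC array, the unnumbered CMP array, CMP replicate 1 or GMP replicate 2, and with run as a block (0.79, adjusted p = 0.411).

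A_52_P18746, at chr11:98345606-98345665 on the same strand, was designed on the cDNA clone AK004152, described on the array as Aiolos. How this clone relates to the coding Ikzf3 transcript was not checked, so its values are those of the clone. It was highest in LT-HSC, at 9.78 and 8.37. The ST-HSC arrays stood at 5.16, 5.26 and 5.91 and the MPP arrays at 2.98, 4.20 and 4.50. The GMP arrays stood at 6.10, 5.10 and 3.63, and no CMP or MEP array was well above background. Neither LT-HSC array overlapped any array of another population. LT-HSC was 12.4-fold above ST-HSC (3.63 ± 0.74, SE, log2 scale, limma, adjusted p = 0.0183), 17.5-fold above GMP (adjusted p = 0.00132), at least 36.0-fold above CMP (adjusted p = 0.000135) and at least 20.4-fold above MEP (adjusted p = 0.000129). All but the first were called whichever array was left out, and all of them with run as a block (3.90, 4.70, 7.03 and 6.01 on the log2 scale, highest adjusted p = 0.0181). No run held LT-HSC together with GMP, CMP or MEP, so the last 3 of these values are reached through the ST-HSC and MPP arrays. Both LT-HSC arrays lay on a slide that held no other array, so slide and LT-HSC cannot be told apart, and with slide as a random block the gap to ST-HSC was not called (3.37, adjusted p = 0.128), while those to GMP, CMP and MEP were (adjusted p = 0.00529, 0.000772 and 0.000917). The gap to ST-HSC was not called without ST-HSC replicate 2, ST-HSC replicate 3 or the LT-HSC pool (highest adjusted p = 0.0619), and within run 3 it was 3.87. A_52_P682315 (chr11:98375101-98375159), from an unclassified bone cDNA (AK036657) whose relation to the coding transcript was likewise not checked, was well above background only on the dim unnumbered LT-HSC array, at 7.64. The LT-HSC pool stood at 3.30 and the other arrays between 1.80 and 2.90. Its difference between LT-HSC and ST-HSC, at least 5.62-fold (adjusted p = 0.0340), fell to 1.33 on the log2 scale without that array, was called in 9 of 17 fits with an array left out, and was not called with slide as a random block (adjusted p = 0.207).

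**Figure D3:**
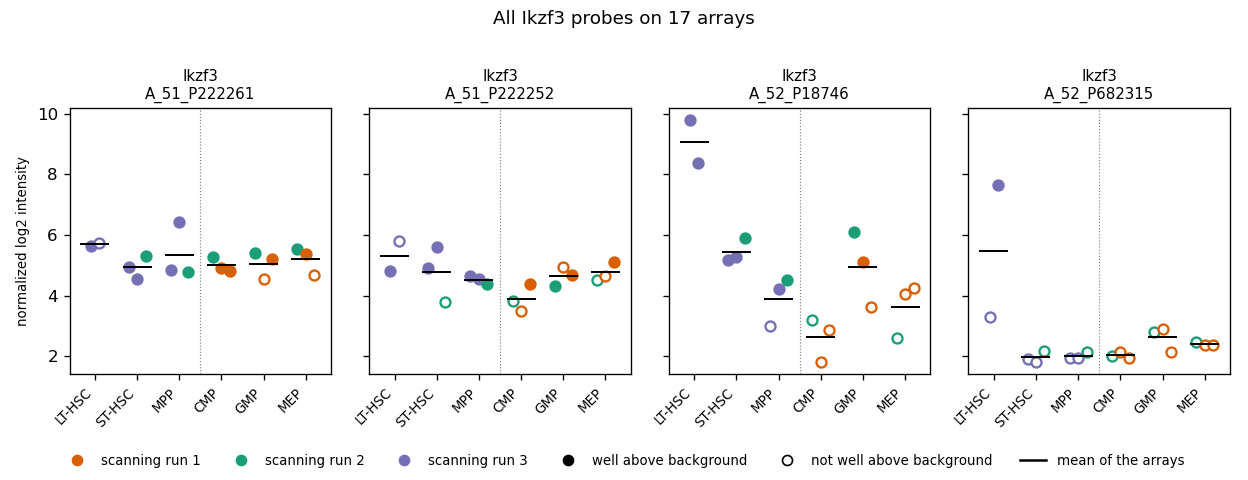
Normalized log2 intensity of the 4 Ikzf3 probes on the 17 arrays, on a common axis, with colours for scanning run, open circles where the probe was not well above background and bars at the mean. A_52_P18746 stands at 9.78 and 8.37 on the LT-HSC arrays and at or below 6.10 elsewhere, while the coding probe A_51_P222261 stays between 4.54 and 6.43.

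Genes of mature lymphocytes were read in the same arrays because Aiolos is abundant in B cells. Cells with B220 or CD3 on their surface were depleted before the sort. Of 6 B cell markers 1 was higher in LT-HSC than in ST-HSC, where 2.93% of gene names were higher and 0.862% lower. It was Ms4a1, which encodes CD20, at 9.49 ± 0.81 (SD, n = 2) in LT-HSC, 4.46 ± 1.91 (n = 3) in ST-HSC and 3.83 ± 0.77 (n = 3) in MPP (LT-HSC over ST-HSC 5.02 ± 0.96, SE, limma, adjusted p = 0.0123). No CMP, GMP or MEP array had Ms4a1 well above background. Pax5, the factor that commits cells to the B lineage, and Blk were well above background on neither LT-HSC array. These arrays had only 54.6% and 41.4% of all spots well above background. Of the 6 B cell markers, 2 to 4 were well above background on the LT-HSC arrays, 3 to 6 on ST-HSC and 4 to 6 on MPP. ST-HSC replicate 3 and MPP replicate 3 had all 6, Pax5 and Blk among them. The mean level of the 6 B cell markers was 5.40 to 5.45 on the LT-HSC arrays, 4.29 to 4.50 on the ST-HSC arrays and 4.09 to 4.48 on the MPP arrays. Of 6 T cell markers 1, Cd8a, was higher in LT-HSC than in ST-HSC (1.93 ± 0.38, adjusted p = 0.0151), and their mean level was 6.78 to 6.94 in LT-HSC against 5.69 to 6.02 in ST-HSC. Markers of mature neutrophils averaged 11.51 to 13.23 on the LT-HSC arrays and 10.75 to 12.48 on the ST-HSC arrays. The part of these markers in the Ikzf3 result was not tested.

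Eos mRNA was dim and variable. Its brightest probe A_51_P445117 (chr10:128070889-128070948) stood at 5.81 and 6.22 in LT-HSC, at 6.46, 6.62 and 5.04 in ST-HSC and at 6.44, 6.31 and 4.84 in MPP. The myeloid arrays ran from 4.01 to 6.19, and the LT-HSC arrays lay above those of GMP but overlapped the other populations. The difference between HSC subsets and myeloid populations was 0.87 ± 0.37 (limma, adjusted p = 0.0732). In ST-HSC and MPP the low arrays were those of run 2. The coding probe A_52_P291857 was higher in HSC subsets by 1.01 ± 0.28 (2.01-fold, adjusted p = 0.0107), but only 8 of 17 arrays had it well above background, and it differed by -0.02 within run 2 and by -0.24 with run as a block. A_51_P353247 (chr10:128070580-128070639) ran from 3.35 to 5.35 with no called difference between any populations, although with run as a block it was lower in LT-HSC than in GMP (-1.50, limma, adjusted p = 0.0201) and lower in CMP than in GMP (-0.87, adjusted p = 0.0338).

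Pegasus mRNA was the most even of the members read on all 17 arrays, between 7.96 and 8.95 (A_52_P582261, chr7:138532770-138532829). The population means were 8.75 ± 0.20 (SD, n = 3) in ST-HSC, 8.72 ± 0.12 (n = 2) in LT-HSC, 8.66 ± 0.25 (n = 3) in MEP, 8.62 ± 0.25 (n = 3) in MPP, 8.19 ± 0.24 (n = 3) in CMP and 8.12 ± 0.16 (n = 3) in GMP. The MEP arrays, at 8.95, 8.50 and 8.52, reached slightly above the HSC subset arrays (highest 8.91) and lay above both other myeloid populations. GMP and CMP differed from MEP by -0.53 and -0.47 (limma, adjusted p = 0.0763 and 0.128), and with run as a block both differences were called (adjusted p = 0.0206 and 0.0396). HSC subsets were above myeloid populations by 0.37 ± 0.11 (1.29-fold, adjusted p = 0.0187), but within run 2 the difference was -0.00 and with run as a block it was -0.02. The F-test (adjusted p = 0.0467) was called in 4 of the 17 fits that left out an array (highest adjusted p = 0.118). ST-HSC exceeded GMP by 0.62 (adjusted p = 0.0350), a call lost without ST-HSC replicate 2 or 3, the unnumbered GMP array or GMP replicate 2, and with run as a block (0.26, adjusted p = 0.559).

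Scanning run moved with the division between HSC subsets and myeloid populations, and only run 2 held both. The sort followed the same division, also within run 2. With run as a block, 1 of 14 family probes was called in that comparison, A_52_P18746 of Ikzf3 (2.80 ± 0.79, limma, adjusted p = 0.0382, against 2.40 ± 0.40 without the block), where 14.5% of all probes were called. The Ikzf1 difference went from 0.70 ± 0.11 (1.62-fold, adjusted p = 0.000303) to 0.38 ± 0.20 (adjusted p = 0.244) and was 0.45 within run 2. The A_52_P413515 difference of Ikzf2 went from 1.68 to 0.70 ± 0.29 (adjusted p = 0.140) and was 0.97 within run 2. A_52_P268911 went from 1.64 ± 0.23 (adjusted p = 9.35e-05) to 0.73 (adjusted p = 0.208). The direction was kept for Ikzf1 and for these Ikzf2 probes, whereas the brightest probes of Ikzf3, Ikzf4 and Ikzf5 turned to -0.19, -0.55 and -0.02, none of them called. The A_52_P18746 value contains the LT-HSC arrays, which run 2 lacks, and within run 2 it was 1.24. Runs 1 and 2 each held CMP, GMP and MEP, and with run as a block the lower level of Ikzf2 in MEP than in GMP was called for A_52_P413515 (adjusted p = 0.000135), A_51_P413398 (adjusted p = 0.000314) and A_52_P268911 (adjusted p = 0.000980).

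**Figure D4:**
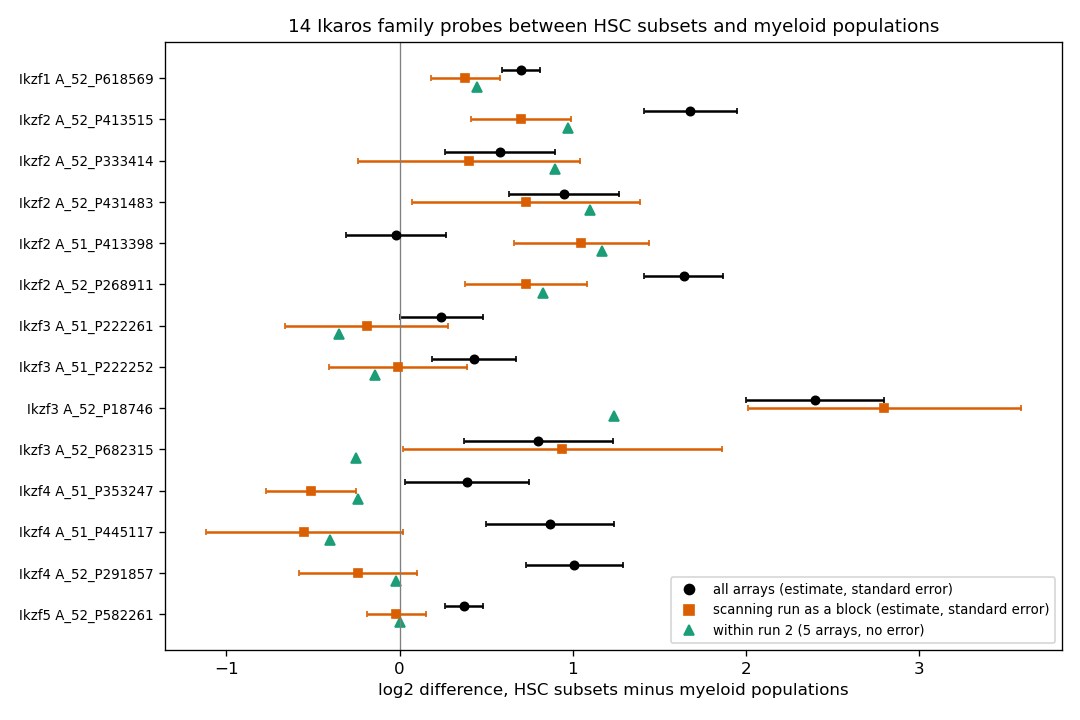
Difference in log2 intensity between HSC subsets and myeloid populations for the 14 family probes, as estimated from all arrays (black, bars are standard errors), with scanning run as a block (orange) and within run 2 (green triangles, 5 arrays, no error). Ikzf1 goes from 0.70 to 0.38 and 0.45, and Ikzf5 from 0.37 to -0.02 and -0.00.

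Another scaling moved the median of all probes more than the values of the members. Normalization to the 75th percentile of each array took that median between HSC subsets and myeloid populations to 0.31, against -0.02 under quantile normalization. On that scale Ikzf1 differed by 0.62 (0.70 under quantile normalization) and Ikzf5 by 0.34 (0.37), so Ikzf5 lay close to the shift of all probes and Ikzf1 above it. Between GMP and MEP the median of all probes moved to -0.43, and A_52_P413515 of Ikzf2 stood at 2.11, in the opposite direction. Markers of other cells also moved between HSC subsets and myeloid populations: all 6 T cell markers were higher in HSC subsets (2 with run as a block), 3 of 6 B cell markers were higher and 1 lower (1 and 0 with run as a block), 3 of 5 neutrophil markers were higher (4 with run as a block), and 2 of 4 erythroid markers were higher (0 with run as a block). Of all gene names 21.7% were higher and 19.0% lower, and 14.5% of all probes were called in either direction with run as a block. The part of these markers in the family's differences was not tested.

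The partners through which Ikaros proteins act on chromatin were read by their brightest probes. Of 13 NuRD subunits 1 was higher in HSC subsets, 5 were lower and 7 were not called, with a median of -0.25 on the log2 scale against 0.04 over all gene names, of which 21.7% were higher and 19.0% lower. Chd3, which encodes the Mi-2α remodelling ATPase, was the one that was higher (1.01 ± 0.10, limma, adjusted p = 6.98e-06, and 0.91, adjusted p = 0.0118, with run as a block). Mbd3 and Mbd2, which encode the alternative methyl-CpG-binding domain subunits, were lower by -1.70 and -1.69 (adjusted p = 3.52e-05 and 8.43e-05), and neither was called with run as a block (adjusted p = 0.0988 and 0.146). Gatad2a, a further subunit, was lower by -0.70 (adjusted p = 0.000393). With run as a block 1 subunit was higher and 0 lower, where 14.5% of all probes were called in either direction. Chd4, which encodes the Mi-2β ATPase best known as a partner of Ikaros, differed by -0.15 ± 0.16 (adjusted p = 0.496), and the deacetylase gene Hdac1 by -0.13 ± 0.16 (adjusted p = 0.564).

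At the step from MPP to CMP, 1 NuRD subunit was higher in MPP and 2 were lower, where 6.51% of gene names were higher and 5.75% lower, and with run as a block the counts were 1 and 0. Chd3 was higher in MPP than in CMP by 1.06 ± 0.17 (limma, adjusted p = 0.00180, and 0.98, adjusted p = 0.0397, with run as a block). Between GMP and MEP 0 subunits were higher in GMP and 2 were lower, where 10.3% of gene names were higher and 8.26% lower. These were Mta3 (-1.56 ± 0.31, adjusted p = 0.00275) and Mta1 (-0.53 ± 0.16, adjusted p = 0.0365), and with run as a block 4 subunits were lower. The 10.3% and 8.26% are from the fit without the block, and no share with it is given for GMP against MEP. Between ST-HSC and MPP no subunit was called by limma (1 at an unadjusted p under 0.05), where 1.09% of gene names were higher and 1.37% lower. With run as a block 2 were lower in ST-HSC, Chd3 (-0.71, adjusted p = 0.0427) and Mta3 (-0.61, adjusted p = 0.0316). Among 5 further genes, corepressors and the Brg1 ATPase gene Smarca4, 1 was higher in HSC subsets and 2 were lower (1 and 0 with run as a block), with a median of -0.18, where 21.7% of gene names were higher and 19.0% lower. Sin3b, a scaffold of deacetylase complexes, was higher by 0.47 ± 0.08 (adjusted p = 0.000371), and Ctbp1, a corepressor that binds Ikaros, was lower by -0.60 ± 0.12 (adjusted p = 0.00157), a call lost with run as a block (-0.28). Its paralogue Ctbp2 was higher in GMP than in MEP by 1.48 ± 0.12 (adjusted p = 1.49e-06), the same direction as Ikzf2. Between HSC subsets and myeloid populations Ctbp2 went the opposite way to Ikzf2 (-0.22, adjusted p = 0.0298), a call lost with run as a block (-0.07).

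Early lymphoid genes that are known to need Ikaros or to be bound by it were often highest in MPP, where Ikzf1 was highest. Of 12 genes, well above background on 1 to 17 arrays each, 8 were higher in HSC subsets than in myeloid populations and 0 lower (median 1.12 on the log2 scale against 0.04 over all gene names, of which 21.7% were higher and 19.0% lower), and 6 were higher with run as a block. Between ST-HSC and MPP, 0 were higher and 7 lower (median -1.27 against -0.01 over all gene names, of which 1.37% were lower), with and without run as a block. One of the 7 was Flt3, whose protein was itself used to sort these populations. Dntt, which encodes terminal deoxynucleotidyl transferase, was lower in ST-HSC by -4.85 ± 0.52 (limma, adjusted p = 0.000282). Il7r, the interleukin-7 receptor chain, was lower by -4.21 ± 0.51 (adjusted p = 0.000596), and Rag1, a subunit of the recombinase, was at least 15.3-fold lower (adjusted p = 0.0101). Between MPP and CMP, 3 were higher in MPP and 0 lower (median 0.69 against 0.01 over all gene names, of which 6.51% were higher and 5.75% lower), namely Rag1 (3.09 ± 0.83, adjusted p = 0.0291), the chemokine receptor gene Ccr9 (2.94 ± 0.28, adjusted p = 4.99e-05) and Dntt (2.19 ± 0.52, adjusted p = 0.0172), and 1 was called with run as a block.

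The same list split between the lower branches, where Ikzf1 did not differ (GMP minus MEP -0.14 ± 0.19, limma, adjusted p = 0.765). Between GMP and MEP 3 genes were higher in GMP and 4 lower, with a median of -0.72 against -0.07 over all gene names, of which 10.3% were higher and 8.26% lower. Cd79b, of the B cell receptor, and Notch1 were higher in GMP by 3.37 and 3.03 (adjusted p = 4.87e-07 and 7.33e-06). Dntt and Ccr9 were lower in GMP by -3.10 and -1.88 (adjusted p = 0.000699 and 0.000261), and Il7r was at least 5.38-fold lower (adjusted p = 8.45e-05). In LT-HSC 3 of the 12 genes were higher than in ST-HSC and 0 lower (5 and 2 with run as a block), where 2.93% of gene names were higher and 0.862% lower: Igll1, the surrogate light chain gene (2.91 ± 0.72, adjusted p = 0.0454), Il7r (2.65 ± 0.57, adjusted p = 0.0249) and Ccr9 (2.51 ± 0.31, adjusted p = 0.000625).

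**Figure D5:**
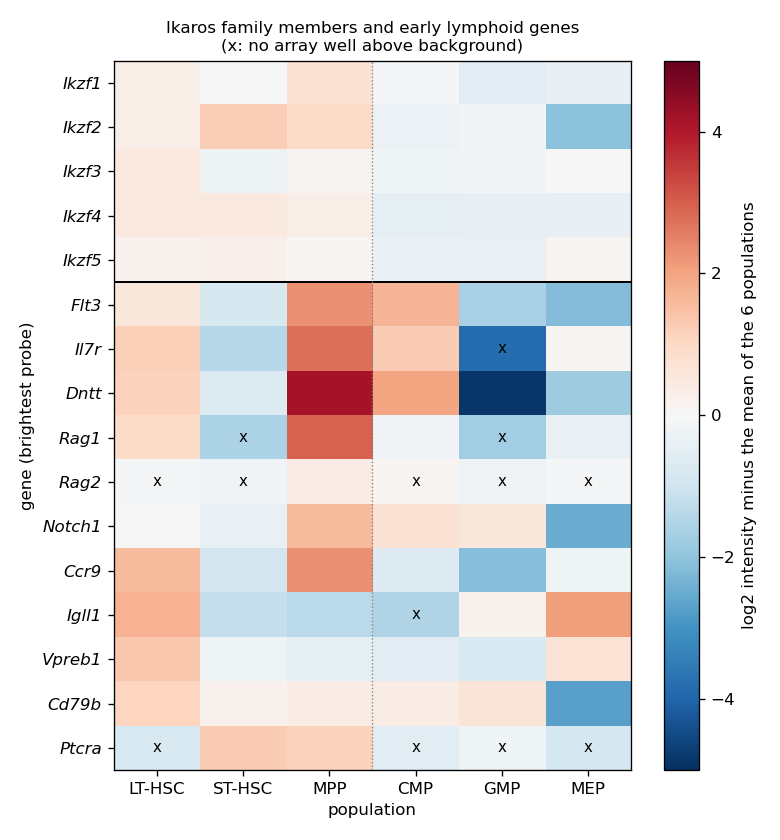
Mean log2 intensity of each population minus the mean of the 6 populations, by the brightest probe of the 5 family members (above the black line) and of early lymphoid genes, on 1 colour scale, with a cross where no array of the population was well above background. Ikzf1 is highest in MPP, as are Flt3, Il7r, Dntt, Rag1, Notch1 and Ccr9, and Ikzf2 is lowest in MEP.

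In human cells Ikaros and Aiolos proteins are degraded through the cereblon ubiquitin ligase in the presence of thalidomide analogs, which mouse cereblon does not support. The genes of that ligase were read as well, in these untreated mouse cells. Of 5 genes 1 was higher in HSC subsets and 2 were lower, with a median of -0.12 against 0.04 over all gene names, of which 21.7% were higher and 19.0% lower. Crbn, which encodes cereblon, was higher by 0.64 ± 0.14 (limma, adjusted p = 0.00218), and Ddb1, the adaptor, was lower by -2.39 ± 0.30 (adjusted p = 3.85e-05). With run as a block the values were 0.05 and -0.75 (adjusted p = 0.0618 for Ddb1), and 0 of the 5 genes were called (3 at an unadjusted p under 0.05). Cul4a, a scaffold cullin, was lower in GMP than in MEP by -1.19 ± 0.23 (adjusted p = 0.00204).

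For each member, the genes with the most similar profile over the 17 arrays were listed among 15379 gene names well above background on at least 9 arrays. The arrays share populations and runs, so the correlations describe these arrays. Those nearest to Ikzf1 were Sesn1 and Anpep (Pearson r = 0.94 each) and Il1r1 (0.93). Those nearest to Ikzf5 were Atf1 (0.95), Siah1b (0.94) and Usp34 (0.93). The profile of Ikzf2 was nearest to AI747699, B230118H07Rik and DV071613 (0.98 each). Ikzf4 was nearest to Ubfd1 (0.91), Nfasc (0.86) and Olfr1419 (0.85), and Ikzf3 to BU592067 and Zfp179 (0.82 each) and Lrrc38 (0.74). The dim coding probe of Ikzf3 thus had the least close matches of the members.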

How the data were processed

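The deposited scanner files give 1 intensity per spot, from which Agilent Feature Extraction (9.5.3.1 or 10.2.1.3) had taken background and spatial trend, with arrays not yet scaled to each other. A further deposited table holds the authors' own log2 values. Its rows were matched in file order, and each of its 17 columns was closest to its own array (Spearman correlation 0.940 to 0.991). It was used only as an alternative.

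Intensities were taken as log2, quantile normalized over all spots as in the study's methods, and averaged over the spots of a probe. The 1639 control spots and spots marked as outliers (161 probe values missing, 0 of them in family probes) were left out. A gene name was represented by its brightest probe (8783 names had several). All arrays entered a single linear model with a mean for each population in limma 3.58.1 under R 4.3.3 (lmFit, eBayes), with Benjamini-Hochberg adjustment over all 41174 probes at 0.05. The fits were tested on simulated data. Where no array of a side had a probe well above background, the fold is a bound, set by the dimmest signal well above background on each array. Precision is limited by how few arrays each population has.

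The family, the lists of partners, lymphoid genes, cereblon ligase genes and markers, and the tests were chosen with earlier results of these data known. Genes named are all family probes, the largest changes each way in each list (up to 3), Chd4 and Hdac1 as reference subunits chosen after their values were seen, markers, and the 3 genes most alike each member on at least 9 arrays. Single values of a pair of list genes are not reported here, although the counts include them. On the array Elane carries its older name Ela2. Positions are those of the array files (mm9), and exon, intron and UTR annotation was not used here. The alternatives were 75th percentile normalization, normexp correction (offset 50), the authors' log2 values, only probes bright in some population (29098 of them), scanning run or replicate number as a block, a random slide effect, a mean over the probes of a gene, and fits without LT-HSC or without any single array. The miR arrays were not analysed here.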

Additional observations from a re-analysis of the deposited data

How the results depend on the processing

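Of 63 alternative counts of family probes called, 46 stayed within 1.5 times the reported count, as did 121 of 136 with an array left out. Of 201 alternative values of single probes, taken over the comparisons counted here and not over the remaining pairs of populations, 161 kept direction and side of the threshold, 23 lost the call, 13 gained one and 4 reversed. Those reversed were with scanning run as a block between HSC subsets and myeloid populations: -0.19 for Ikzf3 A_51_P222261, -0.55 for Ikzf4 A_51_P445117, -0.24 for Ikzf4 A_52_P291857 and -0.02 for Ikzf5. With that block the probes called were 1 for HSC subsets against myeloid populations, 1 for ST-HSC against MPP, 0 for MPP against CMP and 1 for CMP against GMP. With slide as a random block (consensus correlation 0.361) they were 4, 0 for LT-HSC against ST-HSC, 1 for ST-HSC against MPP, 1 for MPP against CMP and 1 for CMP against GMP. Normexp correction gave 1 for LT-HSC against ST-HSC and 1 for ST-HSC against MPP, the authors' log2 values gave 1 for ST-HSC against MPP, the filter on dim probes 1 for CMP against GMP, and the fit without LT-HSC 1 for ST-HSC against MPP. With the replicate number as a block (replicate block) the counts were 4 for LT-HSC against ST-HSC, 1 for MPP against CMP and 1 for CMP against GMP. The numbers were not shown to pair samples, since 8 of 14 same-numbered pairs correlated above 0.1 in their deviations, those on 1 slide at 0.13 to 0.52 and those on different slides at -0.06 to 0.01. The cause of these changes was not tested.

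With each array left out, the counts ranged from 7 to 10 in the F-test, 6 to 9 for HSC subsets against myeloid populations, 0 to 2 for LT-HSC against ST-HSC, 0 to 1 for ST-HSC against MPP, 0 to 3 for MPP against CMP, 0 to 1 for CMP against GMP, 2 to 3 for CMP against MEP and 3 to 4 for GMP against MEP. Over all probes, scanning run as a block took the calls from 17006 to 5970 for HSC subsets against myeloid populations, 4998 to 1535 for MPP against CMP, 1375 to 3629 for LT-HSC against ST-HSC, 833 to 1505 for ST-HSC against MPP, 1962 to 3437 for CMP against GMP and 6863 to 10537 for CMP against MEP. The slide block gave 502 for LT-HSC against ST-HSC, 1299 for ST-HSC against MPP, 3223 for MPP against CMP and 3034 for CMP against GMP, and 75th percentile normalization 684 for LT-HSC against ST-HSC. Probes dim against background, above all those of Ikzf3 and Ikzf4, limit what can be said of those members.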
